A study of Hipposideros armiger and Mus musculus with 20 samples.

Results

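Subcutaneous white fat (sWAT) of the great roundleaf bat, Hipposideros armiger, was compared after 7 days at 10 °C and after 7 days at 30 °C. The genes described are all those with at least 1 FPKM (sequenced fragments relative to transcript length and to library size) in at least 2 of the 4 sWAT libraries. These were 10278 of the 14871 genes in the deposited table. Of the other 4593 genes (30.9%), 498 were listed at 0 in all 4 libraries. Of the genes kept, 213 passed only through the cold libraries and 37 only through the warm ones.

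The cold group was 1 library of a female and 1 of a male bat at 10 °C, and the warm group 1 of a female and 1 of a male at 30 °C, all labelled wild type, with no age given. Intra-abdominal white fat (aWAT) and interscapular brown fat (iBAT) of bats of the same kind, also with 2 libraries at 10 °C and 2 at 30 °C each, shared the fit and served for comparison. The whole series has 20 libraries, 8 of them from mice, which were not used here. The labels do not say whether each library came from 1 animal or whether depots share animals, so the p-values below measure the spread between these libraries, which may in part be technical.

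White fat stores triglyceride and secretes hormones such as leptin and adiponectin. Brown fat burns fuel for heat through the uncoupling protein Ucp1 in its many mitochondria. In the mouse, subcutaneous white fat is the classical site of browning, in which cold brings up Ucp1 and other brown fat genes under noradrenaline. The skin of many mammals also lies on thin sheets of skeletal muscle, whose fibres hold their own troponins, myosins and creatine kinase. Gene roles below are those known in mouse or human, since the table carries mouse gene identifiers and how bat reads were assigned to them is not given in the sources used here.

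Read totals were unknown. Low FPKM values put the depth of the sWAT libraries at 1.19 (cold male), 1.10 (warm female) and 1.05 (warm male) times that of the cold female library. Summed FPKM ran from 294103 to 307157. Log2 values of the tested genes correlated at 0.968 between the cold libraries, 0.958 between the warm libraries and 0.929 to 0.951 across temperatures, as a description over genes that share a library. Some genes that every cell uses are listed near 0 in the bat, so a value of 0 may be a failed estimate and was not taken as absence. Changes are differences of log2(FPKM + 1), cold minus warm, with the standard error of the limma fit over 12 bat libraries. The median change of all tested genes was 0.07 in sWAT, and it was −0.04 after quantile normalization, so a change relative to the other genes of sWAT is 0.07 below the one printed. In bulk tissue, fewer cells of a type and less RNA per cell cannot be told apart.

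The labelled depot matched its markers. Hoxc10, a homeobox gene of the posterior body that marks subcutaneous fat, was at 10.2 and 17.3 FPKM in the cold and 11.9 and 14.4 FPKM in the warm sWAT libraries, against 1.47 to 4.54 FPKM in aWAT, and it was listed at 0 in all 4 iBAT libraries. Zic1, a marker of interscapular brown fat, was at 0 and 0.506 FPKM in cold sWAT, at 0 in both warm sWAT libraries and at 2.08 to 3.08 FPKM in iBAT. Adipoq, the gene of adiponectin, was at 1386 and 1143 FPKM in cold and 901 and 1279.5 FPKM in warm sWAT. The genes of the perilipin Plin1 and the fat cell regulator Pparg were also high in all 4 sWAT libraries.

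Few genes were called between the cold and warm sWAT libraries, and nearly all of those were higher in the cold. Limma called 112 of 10278 genes higher in the cold (1.09%) and 8 lower (0.0778%) at a Benjamini-Hochberg adjusted p under 0.05. Of the rises, 66 were genes known from striated muscle, a set chosen after the values were seen, and genes known from myelin, smooth muscle and macrophages, a clock gene and a lipoxygenase were among the rest. The falls included an acyl-CoA synthetase and an apolipoprotein L. No call fell on the lists of general fat cell genes, brown fat genes, fatty acid oxidation, the mitochondrial ribosome, the TCA cycle or electron transport. Among all genes 1.09% were called higher and 0.0778% lower, so 0 calls on lists of 18 to 38 tested genes is near that share. By size alone, 320 genes were at least 2-fold higher and 46 at least 2-fold lower on the log2(FPKM + 1) scale, with a median standard error of 0.24. At an unadjusted p under 0.05 there were 862 higher genes (8.39%) and 292 lower ones (2.84%). With quantile normalization that split was 606 higher and 655 lower, so the excess of rises among unadjusted genes depends on the scaling. Without the warm female library limma called 77 genes, 74 higher and 3 lower.

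**Figure D1:**
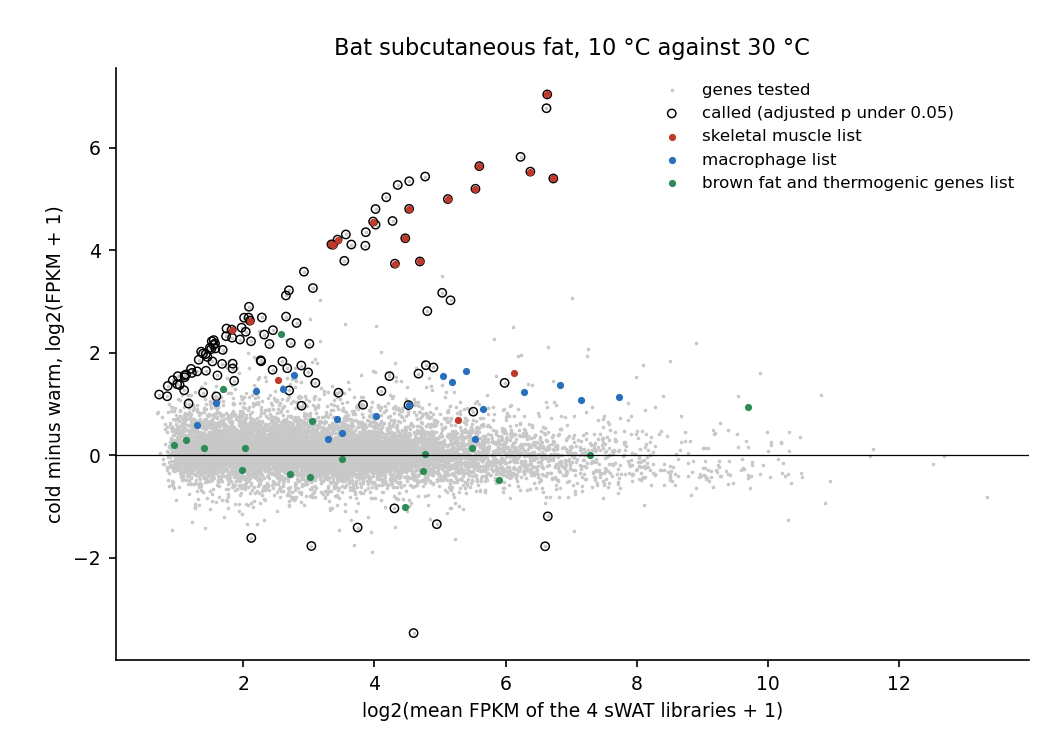
Each point is 1 of 10278 genes tested in bat subcutaneous fat. The x axis is log2 of the mean FPKM of the 4 sWAT libraries plus 1, the y axis the change at 10 °C minus 30 °C in log2(FPKM + 1), and the coloured points are members of the skeletal muscle, macrophage and brown fat lists. Circles mark the 112 genes called higher and the 8 called lower. The skeletal muscle list runs up to 7.04, far from the cloud around 0.

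The largest of the 112 rises was that of a troponin, a part of the calcium switch of muscle thin filaments. Tnnc1, the slow and cardiac troponin C, was at 107 and 287 FPKM in the cold libraries and 0.515 and 0.179 FPKM in the warm ones (log2 change 7.04 ± 0.37, SE, n = 2 libraries each, limma adjusted p = 5.71e-06). Tnni2, the fast troponin I, was at 64.2 and 124 FPKM in the cold and 1.81 and 0.16 FPKM in the warm (5.64 ± 0.40, limma adjusted p = 4.09e-05). The cold groups of both genes lay far above the warm groups, and the cold male library was the highest of the 12 bat libraries for each. Tnni1, the slow troponin I, was at 17.3 and 41.4 FPKM in the cold and 0.223 and 0.14 FPKM in the warm, and the fast troponin T gene Tnnt3 at 28.2 and 53.8 FPKM in the cold and 2.29 and 0.373 FPKM in the warm. Both rose, so troponins of slow and of fast fibres were among the genes called. The rise next to that of Tnnc1 in size was of Gm12125, a predicted gene named after its values were seen, at 155 and 234 FPKM in the cold and 1.86 and 0.0718 FPKM in the warm (6.77 ± 0.38, limma adjusted p = 8.7e-06).

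Myosins and the proteins that anchor them rose with the troponins. Mylpf, the regulatory light chain of fast muscle, was at 114 and 209.9 FPKM in the cold and 3.82 and 1.34 FPKM in the warm (5.53 ± 0.40, limma adjusted p = 4.32e-05). Myl3, the slow and ventricular light chain, was at 36.5 and 68.6 FPKM in the cold and 0.0719 and 0.294 FPKM in the warm (5.44 ± 0.28, limma adjusted p = 5.71e-06). The highest value of either gene in aWAT or iBAT was 1.21 FPKM. The heavy chain genes Myh8, known from perinatal muscle (5.35 ± 0.24), Myh6 (5.03 ± 0.21) and Myh2, a fast heavy chain (4.11 ± 0.21), were called higher too. Troponins, myosins and actins are families of close relatives, and how reads were divided among bat relatives is not given in the sources used here, so the share of any 1 member is uncertain. Tcap, which caps titin at the Z disc, was at 93.9 and 199 FPKM in the cold and 2.67 and 0.615 FPKM in the warm (5.82 ± 0.44, limma adjusted p = 6.18e-05). Des, the intermediate filament desmin, was at 25.4 and 46.7 FPKM in the cold and 1.39 and 1.96 FPKM in the warm (3.74 ± 0.29, limma adjusted p = 6.2e-05). Myotilin (Myot) and the small muscle protein Smpx, at 4.80 ± 0.26 and 4.50 ± 0.36, moved the same way.

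Genes of calcium handling, energy supply and regulation in muscle were also called. Atp2a1, the calcium pump of the fast fibre's sarcoplasmic reticulum, was at 35.4 and 51.6 FPKM in the cold and 1.4 and 0.0154 FPKM in the warm (4.81 ± 0.34, limma adjusted p = 4.09e-05). Casq1, which binds calcium inside that store, was at 9.23 and 28.1 FPKM in the cold and was listed at 0 in the warm libraries and in all 8 libraries of the other depots. Ryr1, the calcium release channel, was at 4.48 and 8.35 FPKM in the cold and 0.242 and 0.0819 FPKM in the warm (2.63 ± 0.28, limma adjusted p = 0.000738). The release channel and both storage genes thus separated the groups without overlap. Ckm, the muscle creatine kinase, was at 38.6 and 93.9 FPKM in the cold and 2.67 and 0 FPKM in the warm (5.00 ± 0.53, limma adjusted p = 0.000702). The oxygen store myoglobin (Mb) was at 13 and 26.2 FPKM in the cold and 0.0443 and 0.0696 FPKM in the warm (4.21 ± 0.27, limma adjusted p = 2.56e-05). Cox6a2, Myf6, Mef2c, Eef1a2, Tpm1 and Actb, all among the rises, were chosen after their values were seen. Cox6a2, the muscle form of a cytochrome oxidase subunit, was at 34.8 and 61.6 FPKM in the cold and 6.46 and 5.1 FPKM in the warm (2.81 ± 0.45, limma adjusted p = 0.0115), and it reached 26.1 FPKM in a cold iBAT library. The call was lost without the warm female, the warm male or the cold male sWAT library. Regulators were among the calls. Myf6, a myogenic transcription factor, was at 1.96 and 10.3 FPKM in the cold and 0.103 and 0.0717 FPKM in the warm (2.41 ± 0.46, limma adjusted p = 0.0368), a call lost in 15 of 26 alternatives. Mef2c, which acts in muscle, vessels and other cells, was at 11 and 11.9 FPKM in the cold and 3.29 and 4.09 FPKM in the warm (1.41 ± 0.21, limma adjusted p = 0.00736), a call lost without the warm female or the cold male library.

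**Figure D2:**
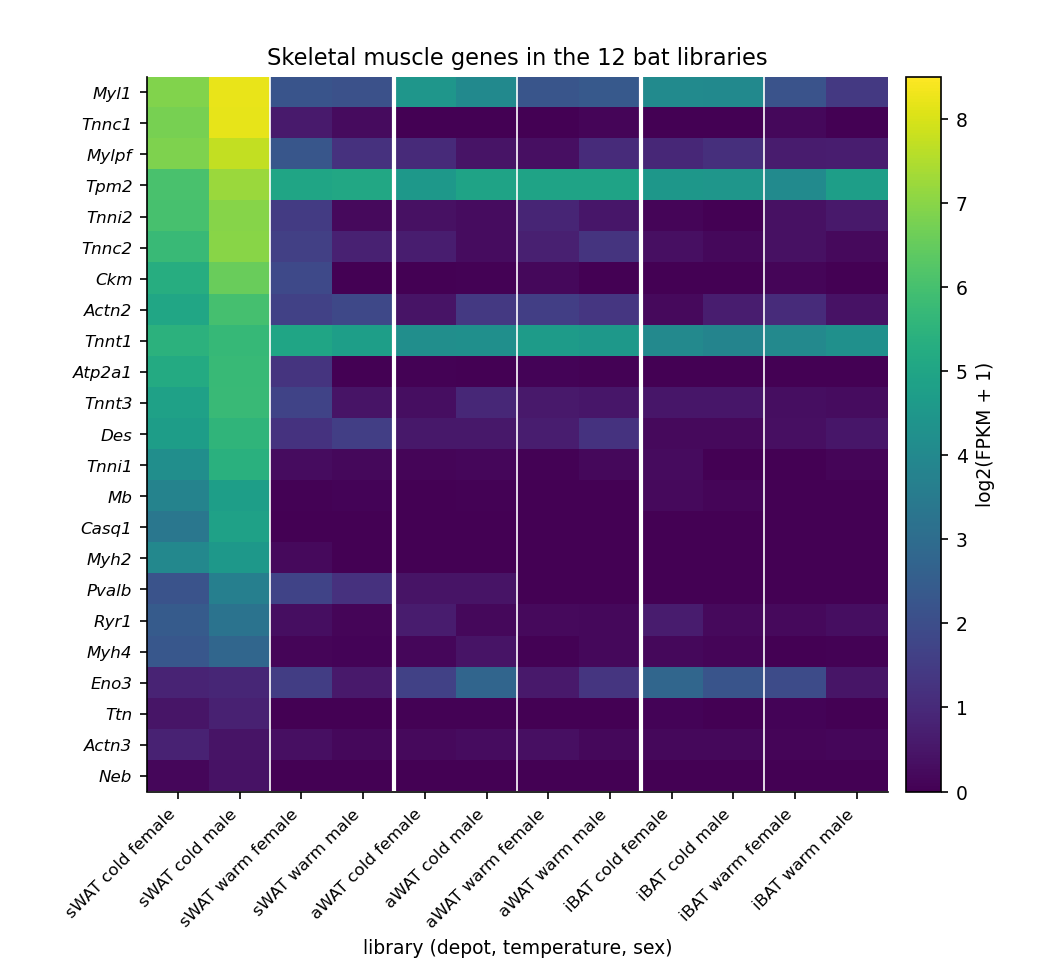
Colour gives log2(FPKM + 1) of the 23 skeletal muscle genes in the table (rows) in the 12 bat libraries (columns, by depot, temperature and sex). The 2 cold sWAT libraries stand apart from the other 10 for most rows, and the cold male library is the brighter one. Tpm2 and Tnnt1 are seen in every library.

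Of the 27 genes on the skeletal muscle list, 23 were in the table and 19 were tested. Actn3, Ttn, Neb and Eno3 were below the filter, and 7 of the 19 passed it only through the cold libraries, so the count over tested members has no independent weight. Of the 19, 16 were called higher in sWAT, against 1.09% of all genes, and none lower, with 14 to 18 called over the alternatives. Their median change was 4.21, against 0.07 for all genes tested. The groups did not overlap for 19 of 19 members, as for 27.5% of all genes in that direction, and each of the 19 was higher in both cold sWAT libraries than in all 10 other bat libraries. The members not called were Tpm2, Pvalb and Tnnt1. Tnnt1, the slow troponin T, was at 42.9 and 50.6 FPKM in the cold and 31.1 and 26.1 FPKM in the warm sWAT libraries and at 13.2 to 24.4 FPKM elsewhere (0.69 ± 0.17, limma adjusted p = 0.131).

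Summed FPKM of the 23 genes was 793 in the female and 1695 in the male cold sWAT library, against 88.7 and 72.3 in the warm ones, 63.9 to 73.9 in aWAT and 40.5 to 61.5 in iBAT. These sums are 0.27% and 0.562% of all FPKM in the cold libraries and 0.0289% and 0.0239% in the warm ones. Of the marker genes that define the list, Mb, Myh4, Tnnt3 and Tnnc2 were above 0 in all 4 sWAT libraries, Ckm was listed at 0 in the warm male library, and Acta1 was not analysed here. In all 19 tested members the cold male library was above the cold female one, with a median ratio of 1.98. Whether the muscle transcripts came from fat cells, from muscle in or beside the sampled tissue, or from elsewhere was not tested.

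Muscle genes beyond the list were called too. Of the 112 genes that rose, 66 (58.9%) are known from striated muscle, a set chosen after their values were seen. Of the 66, 16 are on the list. The share of such genes among all genes tested was not counted, so the 58.9% has no background beside it. In both warm sWAT libraries 50 of the 66 were under 1 FPKM, so they passed the filter only through the cold ones. In all 8 aWAT and iBAT libraries 48 of the 66 were under 1 FPKM. The cold male library exceeded the cold female one in 62 of the 66, with a median ratio of 1.94. Their summed FPKM was 1187 and 2473 in cold sWAT and 50.8 and 32.6 in warm sWAT. In the other depots the sum was 104 to 172 in the cold and 31.6 to 74.2 in the warm libraries. Part of that sum in the other depots was Myl1, a light chain that was called higher in the cold in all 3 depots, and Eef1a2, a translation factor of muscle and nerve called higher in sWAT and aWAT. Myl1 was at 118 and 296 FPKM in cold and 3.59 and 3.31 FPKM in warm sWAT (5.40 ± 0.38, limma adjusted p = 4.09e-05), at 21.3 and 15.3 FPKM in cold and 3.78 and 4.21 FPKM in warm aWAT, and at 15.7 and 15.2 FPKM in cold and 3.55 and 1.68 FPKM in warm iBAT. Its change in sWAT was larger than in aWAT by 3.47 ± 0.54 (limma interaction, adjusted p = 0.00914).

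The remaining 46 genes that rose had summed FPKM of 781 and 1030.3 in cold and 204 and 170.2 in warm sWAT. The cold male library was the higher cold library in 37 of them, which is also the library with more muscle transcript. The muscle sums above stand beside every rise in this set, and their part in it was not tested. Several members are also known from muscle among other tissues. Tpm1, an alpha tropomyosin of muscle and other cells, was at 31.6 and 58.8 FPKM in the cold and 13.8 and 11.3 FPKM in the warm (1.71 ± 0.26, limma adjusted p = 0.00854). Hspb6, a small heat shock protein abundant in muscle, had 37.4 and 45.7 FPKM in the cold and 10.4 and 12.7 FPKM in the warm (1.76 ± 0.33, limma adjusted p = 0.0292). It was 1 of 14 tested chaperones and cold RNA-binding proteins and the only one called. Its call was lost in 6 of 27 alternatives, among them all 4 that left out 1 sWAT library, and that of Tpm1 in 2 of 27, one of them without the warm male library. Actb, the cytoskeletal beta actin, was at 6.16 and 20.1 FPKM in the cold and 0 and 0.0557 FPKM in the warm (3.58 ± 0.39, limma adjusted p = 0.000738). It is listed at or near 0 in the other 8 libraries, although nearly every cell uses this gene, and its near-identical relatives make its assignment uncertain.

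Genes of nerve sheath, smooth muscle and matrix rose in 1 member each of their lists. Mbp, myelin basic protein of Schwann cells, was at 12.3 and 8.51 FPKM in the cold and 2.43 and 2.27 FPKM in the warm (1.75 ± 0.31, limma adjusted p = 0.0228). It was 1 of 7 tested nerve and Schwann cell genes, and its change exceeded that in aWAT by 2.50 ± 0.44 and that in iBAT by 2.45 ± 0.44 (limma interactions, adjusted p = 0.0153 and 0.0432). The call in sWAT was lost in 5 of 27 alternatives, among them all 4 that left out 1 sWAT library. Egr2, a transcription factor of myelination, had 1.86 and 2.2 FPKM in the cold and 0.403 and 0.434 FPKM in the warm (1.09 ± 0.24, limma adjusted p = 0.0786). The nerve markers Sox10 and Th were under 0.6 FPKM in all 4 sWAT libraries, and the list's sum over tested members was 97.9 and 88.6 FPKM in the cold and 49.8 and 103 FPKM in the warm libraries, which overlap.

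Cnn1, calponin of smooth muscle, was at 6.79 and 7.9 FPKM in the cold and 0.642 and 0.614 FPKM in the warm (2.35 ± 0.22, limma adjusted p = 0.000288), and its highest value in the other depots was 1.25 FPKM. The other 9 tested pericyte and smooth muscle genes were not called. Loxl1, which crosslinks elastin, was at 8.45 and 9.12 FPKM in the cold and 4.13 and 3.89 FPKM in the warm (0.97 ± 0.18, limma adjusted p = 0.0307), the only call among 29 tested matrix genes. It was lost in 11 of 27 alternatives, among them all 4 that left out 1 sWAT library. Collagens and other matrix genes had a median change of 0.19, against 0.07 for all genes.

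The following genes were chosen after their values were seen, from rises that belong to no list. Larger rises outside the 66 muscle genes included those of Bbs5 (4.09 ± 0.27, limma adjusted p = 2.95e-05) and Hoga1 (3.26 ± 0.35, limma adjusted p = 0.000712). Alox12e, an arachidonate lipoxygenase of the mouse epidermis, was at 54.9 and 58.6 FPKM in the cold and 11.2 and 2.38 FPKM in the warm (3.17 ± 0.54, limma adjusted p = 0.0183). In aWAT it fell to 12.8 and 16.4 FPKM in the cold, against 79.8 and 49 FPKM in the warm, and the depots differed by 5.21 ± 0.77 (limma interaction, adjusted p = 0.00686). Slc16a14, an orphan member of the monocarboxylate transporter family, was at 4.29 and 4.76 FPKM in the cold and 0.445 and 0.775 FPKM in the warm (1.79 ± 0.19, limma adjusted p = 0.000576). Both genes separated the groups without overlap, with the 2 cold libraries close to each other. Cck, the gene of the peptide cholecystokinin, was at 6.4 and 8.17 FPKM in the cold and 1.35 and 1.86 FPKM in the warm (1.67 ± 0.29, limma adjusted p = 0.0214). Retsat, which saturates retinol, rose in all 3 depots, with 53.2 and 61.9 FPKM in cold and 32.5 and 30.4 FPKM in warm sWAT (0.85 ± 0.17, limma adjusted p = 0.0489). In aWAT it was at 146 and 124 FPKM in the cold and 35.4 and 45.1 FPKM in the warm. The sWAT call of Retsat was lost in 20 of 27 alternatives, that of Cck in 9 of 27, among them each of the 4 that left out 1 sWAT library, and that of Alox12e in 4 of 27, among them those without the warm male, the cold female or the cold male library.

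Macrophage genes had positive changes in sWAT, but 1 of them passed the test. All 19 macrophage genes in the table were tested, 1 of which passed the filter only through the cold libraries, and the change was positive in 19 of 19. In 17 of them both cold libraries lay above both warm ones, as in 27.5% of all genes, and 14 had an unadjusted p under 0.05 in that direction, as in 8.39% of all genes. The median change was 1.08, against 0.07 for all genes. One gene, Cd14, was called. This co-receptor for bacterial lipopolysaccharide was at 26.2 and 32.7 FPKM in the cold and 14.6 and 14.2 FPKM in the warm (0.98 ± 0.20, limma adjusted p = 0.0489), and it was lost in 19 of 27 alternatives. The count at an unadjusted p under 0.05 ran from 6 to 16 over the alternatives and was 6 without the warm male library.

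The defining macrophage markers had these values. Csf1r, the receptor for the growth factor of macrophages, had 53.8 and 76.2 FPKM in the cold and 35.2 and 32.7 FPKM in the warm (0.90 ± 0.29, limma adjusted p = 0.266). Cd68, a lysosomal glycoprotein, had 46 and 48.6 FPKM in the cold and 22.2 and 10.8 FPKM in the warm (1.55 ± 0.50, limma adjusted p = 0.278). Cd163, a scavenger receptor for haemoglobin, had 52.2 and 50.1 FPKM in the cold and 27.4 and 12.3 FPKM in the warm (1.43 ± 0.41, limma adjusted p = 0.211). For all 3 markers both cold libraries lay above both warm ones, with the warm male library lowest. The cold libraries were close together for Cd68 and Cd163 but not for Csf1r. Mrc1, the mannose receptor, had 11.3 and 13.3 FPKM in the cold and 8.5 and 5.93 FPKM in the warm. The complement genes C1qb and C1qc, made by tissue macrophages, had 155 and 170.3 FPKM and 258 and 324 FPKM in the cold, against 76.6 and 50.8 FPKM and 147 and 115 FPKM in the warm. Lgals3, the lectin galectin-3, had 187 and 196 FPKM in the cold and 86.1 and 93.9 FPKM in the warm (1.08 ± 0.28, limma adjusted p = 0.151).

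Summed FPKM of the 19 genes was 1090.4 and 1185 in cold sWAT and 595 and 445 in warm sWAT. In aWAT it was 222 and 418 in the cold and 624 and 377 in the warm, and in iBAT 140.0 to 179.6 over all 4 libraries. None of the 19 was listed at 0 in any of the 12 libraries. Unlike the muscle sum, the macrophage sum was nearly equal in the 2 cold sWAT libraries, and the cold male exceeded the cold female in 10 of 19 members. The change in sWAT exceeded that in aWAT for 6 of 19 members by the limma interaction test, against 1.89% of all genes (194 genes) in that direction, with 0 to 12 over the alternatives. These were Cd14, Csf1r, C1qb, C1qc, Lgals3 and 1 other. The lists of B and T lymphocytes, neutrophils and endothelium had no call in sWAT, and the endothelial median was −0.22.

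**Figure D3:**
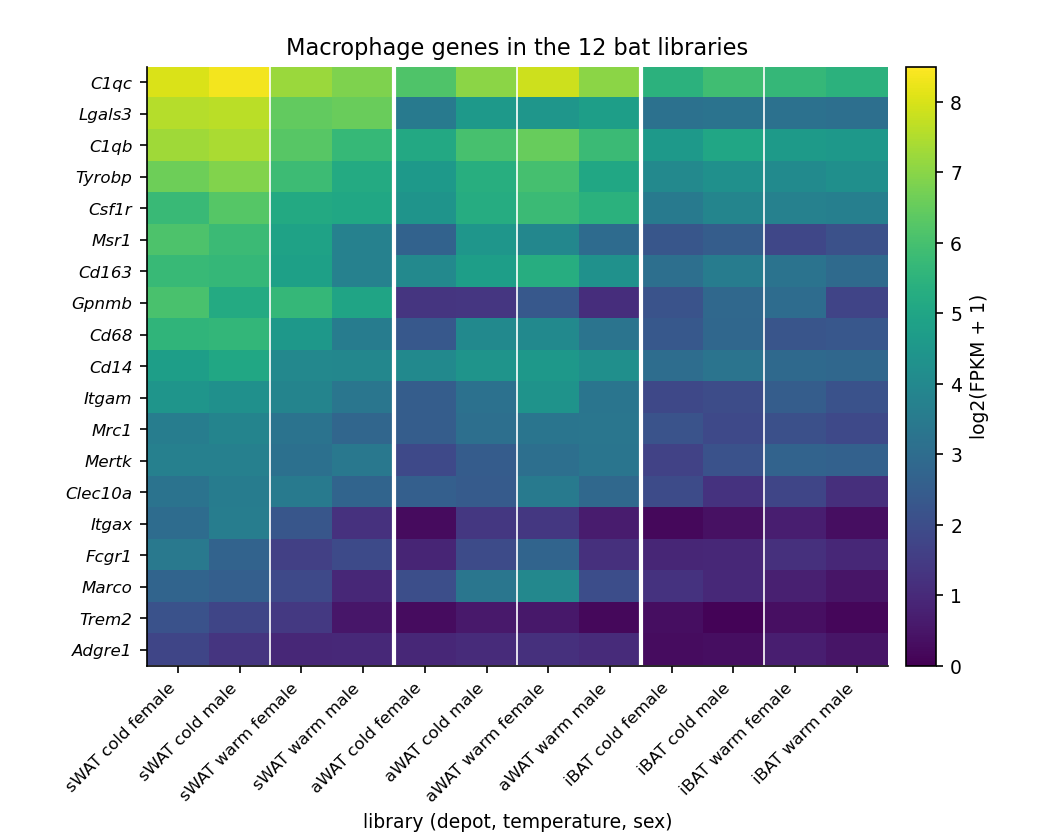
Colour gives log2(FPKM + 1) of the 19 macrophage genes (rows) in the 12 bat libraries (columns, by depot, temperature and sex). The 2 cold sWAT columns are brighter than the 2 warm sWAT columns in 17 of 19 rows, and iBAT is the darkest depot for most of them.

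Among rises outside the list, Vsig4, a complement receptor of resident macrophages, was at 41.9 and 32.7 FPKM in the cold and 12.6 and 10.7 FPKM in the warm (1.59 ± 0.29, limma adjusted p = 0.0245). Pla2g7, a phospholipase secreted by macrophages, was at 86.1 and 94.9 FPKM in the cold and 42.4 and 26.2 FPKM in the warm (1.41 ± 0.22, limma adjusted p = 0.00854). Il1r2, the decoy receptor for interleukin 1, was at 2.52 and 6.56 FPKM in the cold and 0.639 and 0.556 FPKM in the warm (1.69 ± 0.31, limma adjusted p = 0.029). All 3, chosen after their values were seen, were higher in both cold sWAT libraries than in either warm one. The call of Il1r2 was lost in 12 of 26 alternatives, among them those without the warm female, the warm male or the cold male library. That of Vsig4 was lost in 6 of 27, among them all 4 that left out 1 sWAT library, and that of Pla2g7 in 2 of 27, one of them without the cold male library. Spp1, osteopontin of macrophages and bone, had 164 and 298 FPKM in the cold and 29.9 and 21.4 FPKM in the warm, and at 2.35 to 24.5 FPKM it was lower in the other depots (3.07 ± 0.64, limma adjusted p = 0.0591). None of the 20 tested inflammation genes or 17 interferon response genes was called, at medians of 0.29 and 0.07.

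Apol7a, a member of the apolipoprotein L family, fell most. It was at 2.89 and 2.94 FPKM in the cold and 33.9 and 53.1 FPKM in the warm sWAT libraries (−3.47 ± 0.33, limma adjusted p = 0.000308). It fell in the other depots too, by 4.79 in aWAT and by 4.92 in iBAT on the log2 scale, and kept its call in sWAT under all 27 alternatives. Acsf2, an acyl-CoA synthetase of mitochondria, fell to 38.7 and 47 FPKM in the cold, against 167 and 133 FPKM in the warm (−1.78 ± 0.29, limma adjusted p = 0.0146). It fell by 1.67 in iBAT as well, while in aWAT it had 72.9 and 47.1 FPKM in the cold and 62.9 and 59.1 FPKM in the warm, and the sWAT change lay below the aWAT change by 1.72 ± 0.42 (limma interaction, adjusted p = 0.0472). The call in sWAT was lost without the warm female library and without either cold library.

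Osbpl3, a lipid-binding protein of the oxysterol-binding family, fell to 0.867 and 1.42 FPKM in the cold, against 4.84 and 6.27 FPKM in the warm (−1.62 ± 0.24, limma adjusted p = 0.00811). In aWAT it rose, with 9.7 and 9.59 FPKM in the cold and 4.05 and 4.92 FPKM in the warm, and the depots differed by −2.58 ± 0.34 (limma interaction, adjusted p = 0.00431). Dusp10, a phosphatase of stress kinases, fell to 3.98 and 1.71 FPKM in the cold, against 12.4 and 10.8 FPKM in the warm (−1.77 ± 0.30, limma adjusted p = 0.0174). The other named falls encode proteins of RNA processing or signalling. Rnpc3, of the minor spliceosome, was at 7.03 and 5.65 FPKM in the cold and 18.4 and 18.5 FPKM in the warm (−1.41 ± 0.25, limma adjusted p = 0.0222). Taf15, an RNA-binding partner of transcription, was at 15.1 and 17.8 FPKM in the cold and 40 and 46.8 FPKM in the warm (−1.35 ± 0.24, limma adjusted p = 0.0221). The GTPase gene Nras was at 62.4 and 55.3 FPKM in the cold and 171 and 107 FPKM in the warm (−1.19 ± 0.23, limma adjusted p = 0.0373), and its call was lost in 11 of 27 alternatives, among them those without the warm female library or either cold one. The calls of Rnpc3 and Taf15 were each lost in 5 of 27, among them all 4 that left out 1 sWAT library. That of Dusp10 was lost without the warm female, the warm male or the cold male library, and that of Osbpl3 without the warm male or the cold female. The eighth gene, ENSMUSG00000097485, has no symbol.

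Calls were compared between depots. Of the 8 genes lower in sWAT, 5 (62.5%) were also called lower in aWAT, where 723 genes fell (7.03% of those tested), and 3 (37.5%) in iBAT, where 100 genes fell (0.973%). Apol7a and Rnpc3 were lower in all 3 depots. Of the 112 genes higher in sWAT, 6 (5.36%) were also called higher in aWAT, where 886 genes rose (8.62%), and 3 (2.68%) in iBAT, where 111 rose (1.08%). Those 6 were Ciart, Eef1a2, Myl1, Retsat, Sypl2 and Trim26, and the 3 were Myl1, Pfn2 and Retsat. They are 0.677% and 2.7% of the rises of aWAT and iBAT.

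Ucp1, the uncoupling protein itself, was low in all 4 sWAT libraries. It was at 0.826 and 1.2 FPKM in the cold and 0.41 and 0.57 FPKM in the warm, below the filter of the main set. In aWAT it was at 7184 and 2939 FPKM in the cold and 3.18 and 2.67 FPKM in the warm, and in iBAT at 10405 and 7239 FPKM in the cold and 2886 and 2669.7 FPKM in the warm. The cold sWAT libraries were thus below even the warm libraries of the other depots. In a fit of the 11025 genes with at least 1 FPKM in 2 of the 12 bat libraries, the change of Ucp1 was 0.43 ± 0.35 in sWAT (limma adjusted p = 0.724) and lay below the change in aWAT by 9.77 ± 0.50 (limma interaction, adjusted p = 3.01e-05). Against iBAT the difference was −1.21 ± 0.50 (limma interaction, adjusted p = 0.394).

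Of 30 brown fat and thermogenic genes in the table, 12 were below the sWAT filter. None of the 18 tested was called in sWAT, where 1.09% of all genes were called higher and 0.0778% lower. At an unadjusted p under 0.05, 3 were higher, against 8.39% of all genes. The largest change of the 18 was that of Ckmt2 (2.37, limma adjusted p = 0.151). Their median change was 0.08, against 0.07 for all genes. In aWAT 12 of the same 18 rose and 1 fell, against 8.62% and 7.03% of all genes, with a median of 1.76, against −0.15 for all genes. Cidea, a lipid droplet protein of brown fat cells, was at 1447 and 770.0 FPKM in the cold and 481 and 632 FPKM in the warm sWAT libraries (0.94 ± 0.48, limma adjusted p = 0.499). These levels are within the range of the iBAT libraries or below it. Cpt1b, which admits fatty acids to mitochondria, was at 10.8 and 9.41 FPKM in the cold and 10.9 and 10.3 FPKM in the warm (−0.06 ± 0.23, limma adjusted p = 0.949), and the groups overlapped. Its change lay below that in aWAT by 2.39 ± 0.32 (limma interaction, adjusted p = 0.00431). Ppargc1a, the coactivator of mitochondrial genes, was at 5.61 and 1.49 FPKM in the cold and 1.78 and 0 FPKM in the warm (1.28 ± 0.56, limma adjusted p = 0.438).

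Letmd1, a mitochondrial protein needed by mouse brown fat, had 5.61 and 3.79 FPKM in the cold and 6.94 and 5.73 FPKM in the warm, and its change lay below that in aWAT by 3.16 ± 0.41 (limma interaction, adjusted p = 0.00378). Slc25a20, the carnitine carrier, had 29.5 and 23.9 FPKM in the cold and 24.4 and 27.8 FPKM in the warm and differed from aWAT by −2.39 ± 0.38 (limma interaction, adjusted p = 0.00916). Gk, the glycerol kinase of brown fat, was at 0.116 and 0.131 FPKM in the cold and 0.282 and 0.147 FPKM in the warm, against 18.3 and 6.65 FPKM in the cold and 0.427 and 0.446 FPKM in the warm libraries of aWAT. In the wider fit its sWAT change lay below the aWAT change by 3.19 ± 0.49 (limma interaction, adjusted p = 0.00848). Dio2, which activates thyroid hormone, was at 0.408 and 0.153 FPKM in the cold and 0.453 and 0.129 FPKM in the warm. Prdm16, a regulator of brown fat identity, was at 0.573 and 0 FPKM in the cold and 0 and 0.537 FPKM in the warm. The hormone gene Fgf21 was listed at 0 in all 4 sWAT libraries.

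**Figure D4:**
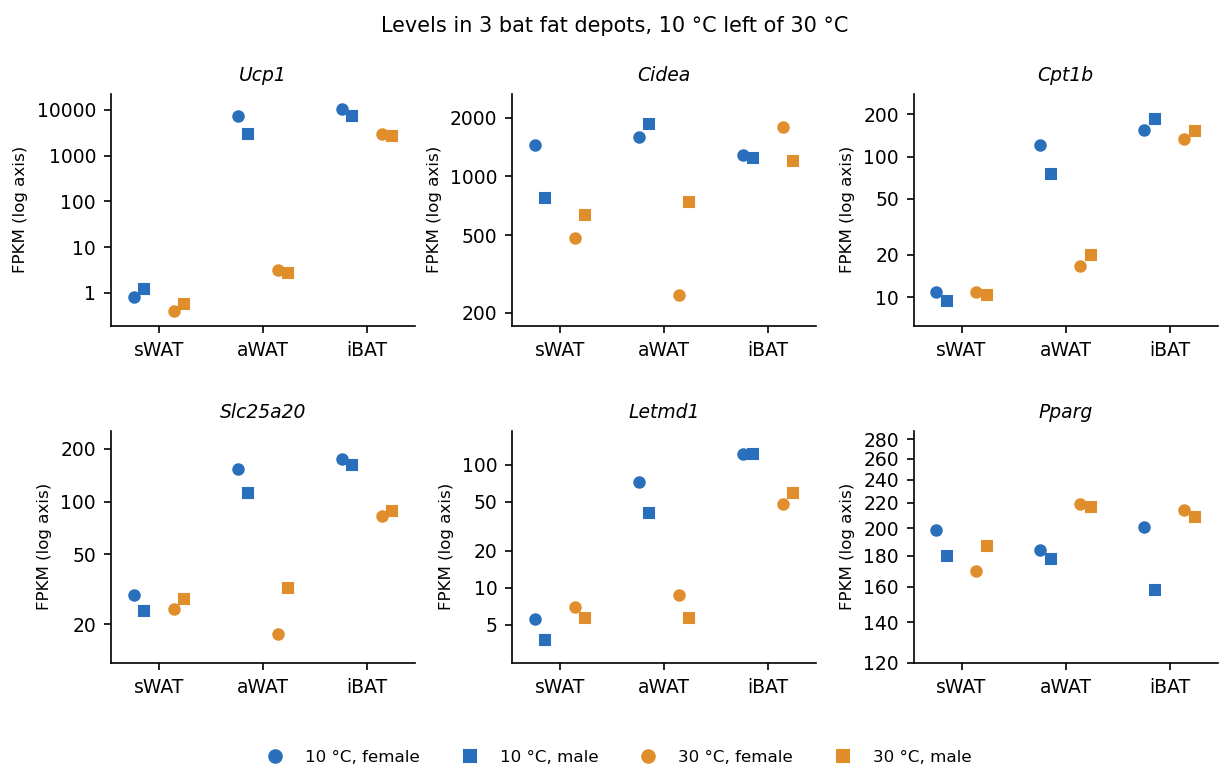
FPKM on log axes of 5 brown fat genes and of the fat cell regulator Pparg in sWAT, aWAT and iBAT. Blue symbols are 10 °C and orange ones 30 °C, with circles for females and squares for males. Ucp1 lies between 0.41 and 1.2 FPKM in sWAT at either temperature, and between 2939 and 7184 FPKM in cold aWAT.

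Of 38 tested genes on the electron transport list, which does not hold the muscle form Cox6a2, none was called in sWAT (median 0.02, against 0.07 for all genes). Among all genes 1.09% were called higher in sWAT and 0.0778% lower. In aWAT 31 of the 38 rose (median 1.61), against 8.62% of all genes. The sWAT change lay below the aWAT change in 35 of 38, and 27 passed the interaction test, against 2.65% of all genes (272 genes) in that direction. This count ran from 2 to 32 over the alternatives. It was 3 in a fit of sWAT and aWAT alone, 2 without the cold male sWAT library, without the cold female aWAT library or without the warm female aWAT library, 7 without the cold female and 8 without the warm male sWAT library, and 15 to 18 without the warm female sWAT library or a library of iBAT, while the median difference stayed between −1.91 and −1.40. Atp5b, the beta subunit of ATP synthase, was at 789 and 789.9 FPKM in the cold and 634 and 785 FPKM in the warm sWAT libraries, and at 4999 and 3450.4 FPKM in the cold and 689.5 and 1193 FPKM in the warm aWAT libraries.

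Genes of the TCA cycle, fatty acid oxidation and the mitochondrial ribosome gave no call in sWAT either. Among all genes 1.09% were called higher in sWAT and 0.0778% lower, at a median change of 0.07. For a lower change than in aWAT by the interaction test, the share of all genes was 2.65%. Of 19 TCA cycle genes none was called in sWAT (median 0.20), and 13 had a lower change than in aWAT by the interaction test, with 2 to 16 over the alternatives. Of 21 fatty acid oxidation genes none was called in sWAT (median −0.12), and 14 had a lower change than in aWAT, with 7 to 18 over the alternatives. Acadvl, the first enzyme for very long chains, was at 451 and 439 FPKM in the cold and 536 and 438 FPKM in the warm sWAT libraries, with overlapping groups. The 27 tested genes of the mitochondrial ribosome had a median of −0.02 in sWAT.

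**Figure D5:**
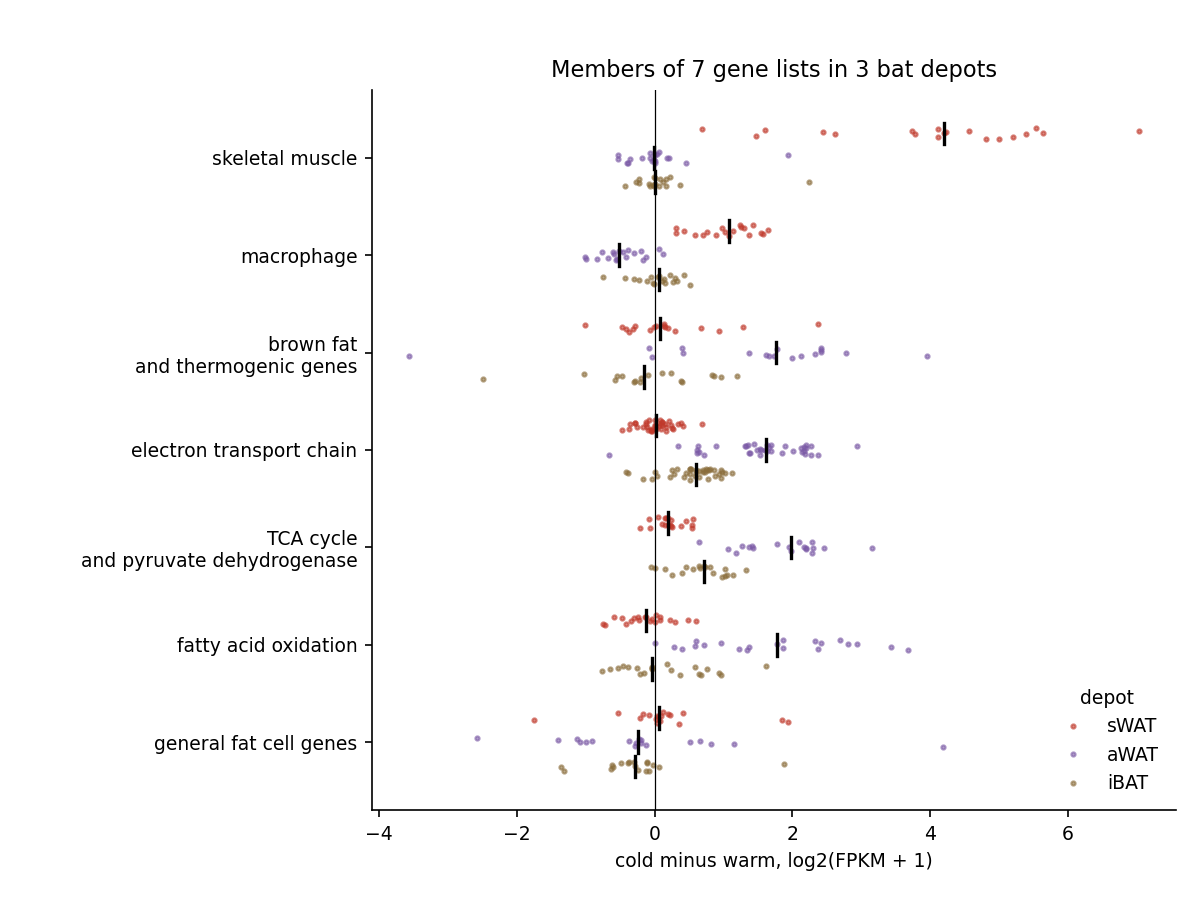
Points are the tested members of 7 gene lists, the x axis is the change at 10 °C minus 30 °C in log2(FPKM + 1), and black bars are medians, in sWAT, aWAT and iBAT (top to bottom within a list). The skeletal muscle median is 4.21 in sWAT and near 0 elsewhere, and the electron transport median is 0.02 in sWAT and 1.61 in aWAT.

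In all, the sWAT change differed from the aWAT change in 466 genes, 194 higher and 272 lower. Of the 272, 268 were called higher in aWAT itself and 2 lower in sWAT, and 68 are on the brown fat and mitochondrial lists. Of the 194, 85 were called higher in sWAT, 74 lower in aWAT and 37 in neither, and 57 are among the 66 muscle genes. The 66 were chosen from the rises in sWAT, which enter the differences from aWAT and from iBAT. Their counts among these differences therefore have no independent weight. Most negative differences thus went with rises in aWAT, and the positive ones were divided between rises in sWAT and falls in aWAT. Against iBAT 59 genes had a higher change in sWAT (0.574%), 45 of them muscle genes, and 2 a lower one (0.0195%). One of these 2 was Fam162b, which had 35.5 and 30.7 FPKM in the cold and 16 and 16.8 FPKM in the warm sWAT libraries (0.97 ± 0.22, limma adjusted p = 0.0965) against 42.4 and 61.1 FPKM in the cold and 3.83 and 3.23 FPKM in the warm iBAT libraries. Without 1 library the count against aWAT ran from 112 to 795 and that against iBAT from 39 to 93.

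Among genes of the fat cell itself, none of the 18 tested was called, with 1 higher and 1 lower at an unadjusted p under 0.05 and a median of 0.07. Over all genes 1.09% were called higher and 0.0778% lower, and 8.39% and 2.84% had an unadjusted p under 0.05. Pparg was at 198 and 180.0 FPKM in the cold and 169.9 and 187 FPKM in the warm (0.08 ± 0.17, limma adjusted p = 0.9). Lep, the gene of leptin, was at 3166 and 7972 FPKM in the cold and 3674 and 8635 FPKM in the warm (−0.16 ± 1.18, limma adjusted p = 0.979). The male library was far above the female one at both temperatures, and the groups overlapped. Lipe and Pnpla2, the hormone-sensitive and adipose triglyceride lipases, were at 342 and 440.1 FPKM and at 1549.6 and 1654 FPKM in the cold, against 342 and 430.4 FPKM and 1078 and 1468 FPKM in the warm. Adrb3, the beta-3 adrenergic receptor of fat cells, was at 2.38 and 5.52 FPKM in the cold and 33.2 and 6.38 FPKM in the warm (−1.76 ± 0.61, limma adjusted p = 0.311). Its warm level rested on the female library. Adra2a, the inhibitory alpha-2A receptor, was at 11.1 and 4.63 FPKM in the cold and 2.23 and 2.21 FPKM in the warm (1.36 ± 0.32, limma adjusted p = 0.101), and its change exceeded that in aWAT by 2.25 ± 0.45 (limma interaction, adjusted p = 0.0249).

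Lipid synthesis genes were not called, and their warm libraries lay far apart. All 16 tested genes of fatty acid synthesis had a positive change and none was called (median 0.41). Fasn, fatty acid synthase, was at 438 and 259 FPKM in the cold, 25.9 FPKM in the warm female and 365 FPKM in the warm male library (1.77 ± 1.26, limma adjusted p = 0.655). Mid1ip1, which activates acetyl-CoA carboxylase, was at 156 and 102 FPKM in the cold, 13.9 FPKM in the warm female and 145 FPKM in the warm male. Acly, which supplies cytosolic acetyl-CoA, was at 27.1 and 28.7 FPKM in the cold and 12.4 and 41.2 FPKM in the warm. For each of these genes the warm female library was lowest and the warm male lay among or above the cold libraries, so the groups overlapped where the cold values were below the male. None of the 23 triglyceride, 17 cholesterol or 13 glycolysis genes was called, at medians of 0.12, 0.04 and 0.41.

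One clock gene rose. Ciart, a repressor in the circadian clock, was at 8.53 and 13.5 FPKM in the cold and 3.01 and 2.68 FPKM in the warm (1.61 ± 0.22, limma adjusted p = 0.00403), and it was called higher in aWAT too. Of 14 tested clock genes, 4 had an unadjusted p under 0.05, all of them higher in the cold, as had 8.39% of all genes. Cry2, another repressor, had 11.3 and 17.2 FPKM in the cold and 5.94 and 6.89 FPKM in the warm (1.02 ± 0.24, limma adjusted p = 0.104). Tef, an output factor, had 18 and 15.7 FPKM in the cold and 9.1 and 9.37 FPKM in the warm (0.80 ± 0.21, limma adjusted p = 0.151). For all 3 genes the groups did not overlap. Arntl, the positive arm of the clock, had 3.56 and 4.81 FPKM in the cold and 6.1 and 3.39 FPKM in the warm, with overlap. Cry2, Tef and Arntl were chosen after their values were seen. The hour of sampling is not given in the labels. Cirbp, a cold-inducible RNA-binding protein, had 105 and 108 FPKM in the cold and 107 and 79.7 FPKM in the warm (0.20 ± 0.35, limma adjusted p = 0.883).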

How the data were processed

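RNA was isolated by a column kit made for fatty tissue and sequenced with Illumina chemistry, per the labels' protocols and the series' design text. CASAVA 1.8 is named in the submitters' processing notes. How reads were aligned, counted and normalized, and the genome build, is not given in the sources used here. In place of counts, the authors deposited 1 table of FPKM per gene and library, so no count model was used. Depth was unknown, and relative depth was read from whole-number steps of low FPKM values (42.1% to 67.4% of low genes within 0.5%).

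Genes with at least 1 FPKM in 2 of the 4 sWAT libraries were fitted as log2(FPKM + 1) with limma 3.58.1 (R 4.3.3), 6 groups of bat depot and temperature, trended empirical Bayes and Benjamini-Hochberg adjustment over all genes at 0.05. Interactions compared the cold effect between depots. Scripts were tested on simulated data. Figures used matplotlib 3.10.9. With 2 libraries against 2, an exact permutation test cannot go below p = 0.333. Alternatives were other pseudocounts, filters, scalings, fits and leaving out each library.

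Sex, the label that the temperature groups share, did not pair temperatures: the deviations of cold and warm libraries of 1 sex correlated at −0.003 in sWAT, −0.184 in aWAT and 0.052 in iBAT. Across depots, libraries of 1 temperature and sex correlated at 0.264 to 0.571. Named genes were the 15 largest called changes in each direction, filled to 10 by the smallest unadjusted p. Their higher group averaged 5 FPKM or more, with 1 sign in both sexes and a symbol other than a clone or predicted name. Also named were the 5 largest per interaction and direction, 16 preset genes, up to 4 members per list and the 10 highest genes. Some of the defining cell type markers were named too. Genes outside these rules were chosen after their values were seen, whether or not the text marks each. The members and lists were chosen with earlier results of these data known.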

Additional observations from a re-analysis of the deposited data

Results flagged for a closer look

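The change at 10 °C differed between sWAT and aWAT in 466 genes and between sWAT and iBAT in 61 genes, by limma interaction tests adjusted over all genes. Against aWAT the sWAT change was lower in 27 of 38 electron transport genes and 13 of 19 TCA cycle genes. It was also lower in 14 of 21 fatty acid oxidation genes, against 2.65% of all genes in that direction. The sWAT change was higher in 17 of 19 skeletal muscle and 6 of 19 macrophage genes, against 1.89% of all genes. The electron transport, TCA cycle, fatty acid oxidation and macrophage counts varied over the alternatives, as given above. Against iBAT, 16 of 19 skeletal muscle genes had the higher change in sWAT, against 0.574% of all genes. The muscle counts have no independent weight, since 7 of the 19 passed the filter only through the cold libraries. Single genes whose cold effect in sWAT differed from that in aWAT were Ucp1 by −9.77, Gk by −3.19, Osbpl3 by −2.58, Alox12e by 5.21, Cpt1b by −2.39 and Letmd1 by −3.16 on the log2 scale. No group had the 4 libraries needed to look for single libraries that stand apart.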

How the results depend on the processing

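No named gene called in sWAT, in the main fit or an alternative, changed sign between them under any of 27 alternatives. Changes that were not called could change sign, as did those of Acly (−0.55 to 1.11) and Fasn (−0.12 to 3.65). Of 58 named genes called, 29 were called in all alternatives. The calls in sWAT (120 genes) were 64 with a filter of 5 FPKM (57 higher, and 39 for the difference from iBAT) and 54 with the 4 sWAT libraries alone (52 higher, 2 lower). They were 176 with no filter (163 higher, 13 lower), and 15 genes were lower after quantile normalization, where iBAT had 114 calls. A pseudocount of 0.1 left 32 genes for the difference from iBAT, array weights gave 393 calls in iBAT, and 8 libraries gave 166 genes for the difference from aWAT. Letting libraries of 1 temperature and sex correlate across depots, chosen after seeing the data, gave 1344 and 155. The macrophage count was 0 with either other pseudocount, a filter of 5 FPKM or over 12 libraries, rescaling without the 10 highest genes, 4 or 8 libraries, no trend, and the replicate block.

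With sex as a replicate block, 126 genes were called in sWAT (115 higher, 11 lower); the sexes share only a label, since their deviations correlated at −0.003 in sWAT. Leaving out 1 library gave 77 to 120 calls in sWAT (74 to 111 higher, 3 to 11 lower), 112 to 795 against aWAT, 39 to 93 against iBAT, 439 to 1689 in aWAT, 4 to 214 in iBAT, 16 to 18 for muscle and 0 to 2 for macrophages. Brown fat and electron transport genes had 0 calls in sWAT under all 27 alternatives, and general fat cell genes had 0 except 1 lower without the warm male sWAT library. Read depth was unknown, and 2 libraries a group limit the precision.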

Other observations

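Genes of the cytosolic ribosome had a positive change in 2 of 21 tested members in sWAT, and none was called. Their median was −0.32, against 0.07 for all genes. It was −0.64 in aWAT and −0.29 in iBAT, against −0.15 and −0.11 for all genes. Summed FPKM of the 21 was 5009 and 4724 in cold sWAT, 7800 in the warm female and 5214 in the warm male library. Rpl23, a protein of the large subunit, had 1243 and 1259 FPKM in the cold and 2028 and 1390.0 FPKM in the warm. Lysosome and autophagy genes had a median of 0.29, and 15 of 26 had both cold libraries above both warm ones, as did 27.5% of all genes. Atp6v1b2, a subunit of the proton pump chosen after its values were seen, had 31.6 and 28.6 FPKM in the cold and 14.2 and 18.6 FPKM in the warm (0.85 ± 0.18, limma adjusted p = 0.06).

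Among very abundant transcripts, Gsn, the actin-severing gelsolin, had 2868 and 2093 FPKM in the cold and 1304 and 905 FPKM in the warm (1.17 ± 0.39, limma adjusted p = 0.287). Vim, the intermediate filament vimentin, had 1105 and 1491 FPKM in the cold and 2759 and 2166 FPKM in the warm (−0.93 ± 0.30, limma adjusted p = 0.266). Igkc, the constant region of the kappa light chain, had 57.5 and 471 FPKM in the cold and 31 and 47.9 FPKM in the warm, so its cold level rested on the male library.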
